A study of Macaca fascicularis with 2 samples.

Results

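*IL23R*, *COL5A3*, *CALHM6*, *PERP* and *DAPK2* are 5 of the 29324 genes counted in DP T cells, the blood T cells that carry both CD4 and CD8, and were taken by their symbols. *IL23R* is a marker by which the Th17-like cells of the study were named. *COL5A3*, *CALHM6* and *PERP* had been picked for a high level in Th17-like relative to Th2-like cells of these same data, and *DAPK2* was chosen with earlier results of these data known. Their levels are therefore given as a description, and no level below is offered as a test of the choice.

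The cells came from peripheral blood of 1 untreated cynomolgus monkey aged 10 years. CD4+ cells and then, among these, CD8+ cells were taken from fresh blood cells with magnetic beads. A gene expression library and a library of CD4 and CD8α antibody tags were made from the same cells, with no replicate, so no value has an error across animals. Of 8953 barcodes, none listed more than once, 8830 passed limits of 200 to 4000 genes and at most 20% mitochondrial UMIs. A UMI is a unique molecular identifier and stands for 1 captured RNA molecule. The cells held 31677119 gene UMIs with a median of 3145 per cell, and *CD3E*, which marks T cells, was found in 96.3% of them. The cells were called CD4+CD8+ from the bead selection, and *CD4* and *CD8A* RNA had a UMI in only 28.4% each.

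Th17 cells are helper T cells known for making IL-17A and for guarding mucosal surfaces. They carry the chemokine receptor CCR6, which draws cells towards CCL20. IL-23, sensed through a receptor of IL-23R and IL-12Rβ1 that acts by JAK2, TYK2 and STAT3, keeps these cells going. Of the 5 genes, *IL23R* encodes the subunit particular to the IL-23 receptor. *COL5A3* encodes the α3 chain of type V collagen, and *CALHM6* a member of the calcium homeostasis modulator family of channels. *PERP* encodes a membrane protein known as a part of desmosomes in epithelia. *DAPK2* encodes a calcium and calmodulin-dependent kinase of the death-associated protein kinase family.

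All 5 genes were found in few cells. *IL23R* had 68 UMIs in 63 cells and *COL5A3* 196 UMIs in 144 cells. *CALHM6* had 349 UMIs in 250 cells, *PERP* 232 UMIs in 173 cells and *DAPK2* 443 UMIs in 353 cells. Most of these cells held a single UMI of the gene (58, 108, 188, 130 and 294 cells in the same order), and no cell held more than 7 UMIs of any of them. Levels below are CPM, the summed UMIs of a gene per 1000000 gene UMIs of the group, with exact Poisson 95% intervals in parentheses, and they are compared between cells and not between genes. Shares of cells have exact binomial (Clopper-Pearson) 95% intervals. Both kinds cover counting error only.

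Free RNA in droplets can give a UMI to a cell that does not make it, so those cells of the B-like cluster that were nearly free of T cell RNA (0 or 1 UMI over *CD3D*, *CD3E*, *CD3G* and *TRAC*) served as a background. None of the 5 genes had a UMI in these 115 cells, for which a limit of 3 cells gives 2.61% and the exact interval reaches 3.16% of cells per gene, although the cells were deep, with a median of 4549 UMIs. *CCR6*, which B cells also make, had 4 UMIs in 4 of them. The other 47 cells of the B-like cluster, which held 2 or more UMIs of the T cell genes, had 4 *IL23R*, 4 *COL5A3*, 6 *CALHM6*, 0 *PERP* and 2 *DAPK2* UMIs. After every cell was thinned to 2200 UMIs, which left out 754 shallower cells, the shares of all cells with a UMI were 0.310% for *IL23R*, 0.768% for *COL5A3*, 1.44% for *CALHM6*, 1.003% for *PERP* and 2.48% for *DAPK2*. The control cells thinned alike stayed at 0 of 113, with a limit of 2.65% by 3 cells and 3.21% by the exact interval, so at this depth the control cannot place any single share over all cells above background.

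The cells were divided by their surface tags, with 144 CD4 tag UMIs and 419 CD8 tag UMIs as thresholds. This gave 5758 CD4hiCD8lo, 2543 CD4hiCD8hi, 418 CD4loCD8hi and 111 CD4loCD8lo cells. In CD4hi cells, all 5 genes stood higher with a high than with a low CD8 tag. In CD4loCD8hi cells they parted: *PERP* and *DAPK2* were about as high there as in CD4hiCD8hi cells, while *COL5A3* and *CALHM6* were lower.

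*IL23R* stood at 0.600 CPM (0.300 to 1.07) in CD4hiCD8lo, 4.79 (3.601 to 6.25) in CD4hiCD8hi and 1.84 (0.379 to 5.37) in CD4loCD8hi cells, with 0 UMIs in CD4loCD8lo cells. The log2 ratio of CD4hiCD8hi to CD4hiCD8lo cells was 2.998 (2.05 to 4.08). Of the 63 cells with *IL23R*, 50 were CD4hiCD8hi, 10 CD4hiCD8lo and 3 CD4loCD8hi, so the receptor transcript lay mostly in cells with much of both coreceptors. *COL5A3* stood at 2.07 CPM (1.47 to 2.85) in CD4hiCD8lo, 13.5 (11.4 to 15.8) in CD4hiCD8hi, 3.06 (0.995 to 7.15) in CD4loCD8hi and 2.21 (0.0561 to 12.3) in CD4loCD8lo cells. Its log2 ratio was 2.70 (2.18 to 3.25) for CD4hiCD8hi and 0.56 (-1.14 to 1.91) for CD4loCD8hi, each over CD4hiCD8lo cells, and the second interval includes no difference.

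*CALHM6* had the smallest rise with the CD8 tag, from 7.48 CPM (6.28 to 8.84) in CD4hiCD8lo to 18.6 (16.1 to 21.2) in CD4hiCD8hi cells, a log2 ratio of 1.31 (0.99 to 1.63). In CD4loCD8hi cells it stood at 1.84 CPM (0.379 to 5.37), lower than in CD4hiCD8lo cells by a log2 ratio of -2.02 (-4.32 to -0.45). It was the only one of the 5 with a lower level in CD4loCD8hi than in CD4hiCD8lo cells. Of its 250 cells, 109 were CD4hiCD8lo.

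*PERP* stood at 2.40 CPM (1.74 to 3.22) in CD4hiCD8lo, 14.6 (12.4 to 17.0) in CD4hiCD8hi and 12.9 (7.97 to 19.7) in CD4loCD8hi cells. *DAPK2* stood at 6.06 CPM (4.98 to 7.29), 25.9 (23.0 to 29.1) and 23.3 (16.5 to 32.0) in the same order. For both, the 2 gates with a high CD8 tag differed by less than the counting error, with log2 ratios of CD4loCD8hi to CD4hiCD8hi cells of -0.18 (-0.91 to 0.48) and -0.15 (-0.68 to 0.34). The same ratio was -2.14 (-3.78 to -0.88) for *COL5A3* and -3.33 (-5.62 to -1.77) for *CALHM6*. The plot of levels by gate shows both patterns.

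**Figure D1:**
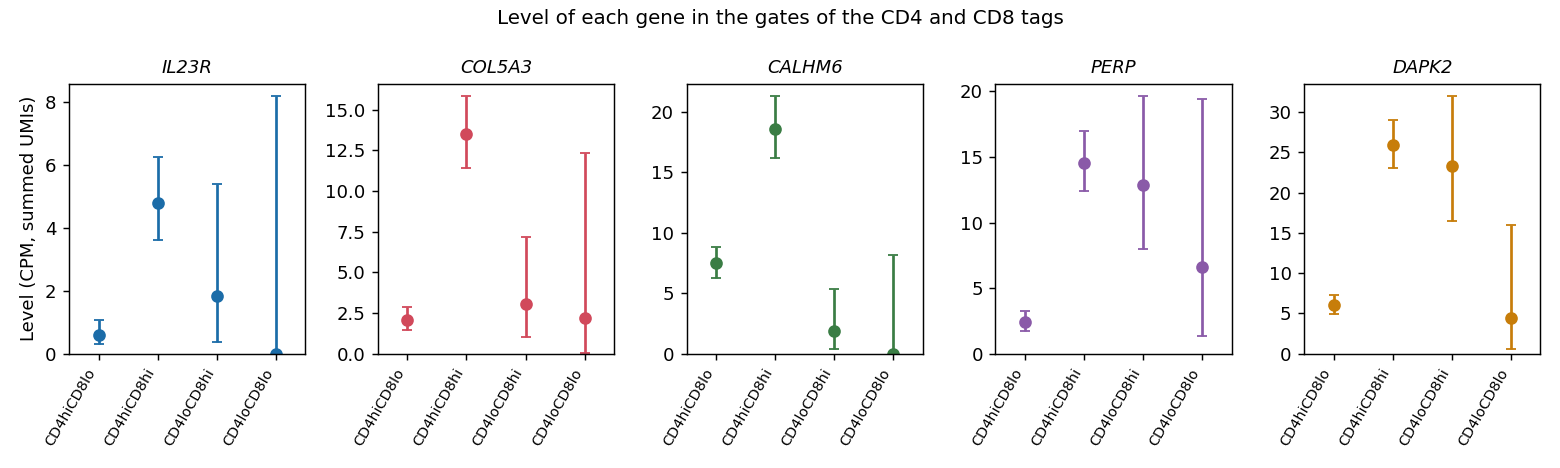
Level of each gene (CPM from summed UMIs, linear axis, 1 panel per gene) in the 4 gates of the CD4 and CD8 tags; points are values and bars exact Poisson 95% intervals. All 5 genes are higher in CD4hiCD8hi than in CD4hiCD8lo cells, while in CD4loCD8hi cells *PERP* (12.9 CPM) and *DAPK2* (23.3 CPM) stay high and *CALHM6* (1.84 CPM) does not.

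A fold of at least 2 was used to count genes. Towards CD4hiCD8hi relative to CD4hiCD8lo cells, 4.51% of the 10028 genes with at least 50 UMIs reached it, and 1.19% reached it in the other direction. All 5 genes were among the former. *IL23R*, with 11 UMIs in CD4hiCD8lo and 54 in CD4hiCD8hi cells, passed the limit of 50 UMIs only through the latter. For CD4loCD8hi over CD4hiCD8lo cells, *IL23R* and *COL5A3* had fewer than 50 UMIs. Of the other 3, *PERP* and *DAPK2* were higher (background 5.21% of 9416 genes) and *CALHM6* lower (background 6.56%).

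The rise with the CD8 tag was not even. When the CD4hi cells were divided into 10 equal bins by their CD8 tag, *IL23R* had 0 UMIs in the lowest bin and reached 7.73 CPM (5.38 to 10.7) in the highest, which began at 805 tag UMIs. *COL5A3* went from 0 UMIs in the lowest bin to 5.22 CPM (2.99 to 8.48) in the eighth, 14.9 (11.1 to 19.5) in the ninth and 18.6 (14.8 to 23.0) in the highest. *PERP* went from 0.842 CPM (0.102 to 3.04) in the lowest bin to 7.18 (4.5 to 10.9), 10.3 (7.21 to 14.3) and 23.4 (19.2 to 28.3) in the same last bins. *DAPK2* and *CALHM6*, by contrast, did not rise from the ninth to the highest bin. *DAPK2* stood at 32.6 CPM (26.9 to 39.1) and then 26.3 (21.8 to 31.4), and *CALHM6* at 22.3 in both. Cells just at the threshold differed by less than the counting error for all 5 genes. The 353 CD4hi cells with a CD8 tag within about 10% under it had 0 *IL23R*, 5 *COL5A3*, 16 *CALHM6*, 8 *PERP* and 14 *DAPK2* UMIs, and the 324 cells within 10% over it 2, 4, 10, 5 and 18.

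**Figure D2:**
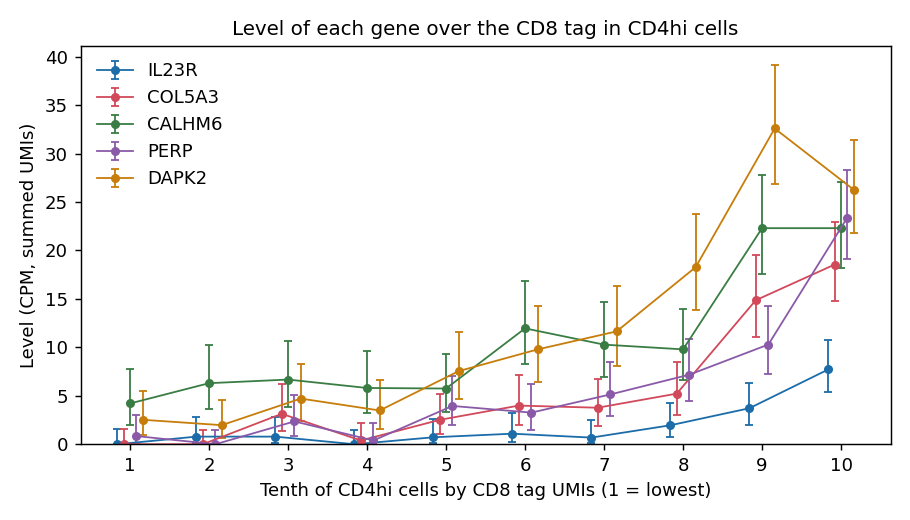
Level of each gene (CPM from summed UMIs) in 10 equal bins of CD4hi cells ordered by CD8 tag UMIs, bin 1 lowest; points are values, bars exact Poisson 95% intervals. The highest level of each gene lies in bin 9 or 10, and *PERP* goes from 0.842 CPM in bin 1 to 23.4 CPM in bin 10.

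Depth moved with the gates and with the tags. Median UMIs per cell were 2949.5 in CD4hiCD8lo and 3778 in CD4hiCD8hi cells, and 4483 to 5580 in cells with a UMI of the 5 genes against 3116 to 3139 in cells without. Cells with these genes also carried more of both tags: the median CD4 tag was 633 UMIs in cells with *IL23R* and 417 in the others, and the median CD8 tag 897 and 297. CPM already divides by depth, but a tag does not. When tags were scaled to the gene UMIs of the cell before the same thresholds were applied, a choice made after seeing the data, *CALHM6* no longer differed between CD4hiCD8hi and CD4hiCD8lo cells beyond counting error (log2 ratio 0.20, -0.15 to 0.54). The log2 ratio went from 2.70 to 1.47 (1.03 to 1.91) for *COL5A3* and from 2.10 to 1.15 (0.86 to 1.45) for *DAPK2*. It went from 2.60 to 2.02 (1.59 to 2.45) for *PERP* and from 2.998 to 2.05 (1.27 to 2.86) for *IL23R*. B cell markers stood at 87.9 CPM in CD4hiCD8hi and 139 in CD4hiCD8lo cells and monocyte markers at 130 and 80.2, while the 19 Monocyte-like cells held none of the 5 genes. The part of depth in the gate differences was not tested beyond these values.

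*CCR6* had 351 UMIs in 263 cells, 2.98% of all. A single *CCR6* UMI was held by 201 of them, so *CCR6* can go unseen in cells that make it. Cells are called *CCR6*-negative below only because no UMI was counted. Those 263 *CCR6*-positive cells held all 5 genes at a far higher level than the 8567 cells without a *CCR6* UMI. *IL23R* stood at 23.6 CPM (16.5 to 32.9) against 1.09 (0.752 to 1.54), and *COL5A3* at 67.5 (54.9 to 82.1) against 3.18 (2.58 to 3.88). *CALHM6* stood at 93.8 CPM (78.9 to 111) against 6.96 (6.05 to 7.96). The log2 ratios were 4.43 (3.71 to 5.17), 4.41 (3.99 to 4.83) and 3.75 (3.43 to 4.07). *PERP* stood at 51.3 CPM (40.4 to 64.2) against 5.17 (4.39 to 6.04) and *DAPK2* at 76.9 (63.5 to 92.4) against 10.9 (9.75 to 12.1), with log2 ratios of 3.31 (2.90 to 3.72) and 2.82 (2.5 to 3.13). A fold of at least 2 towards *CCR6*-positive cells was reached by 5.11% of 10177 genes, and away from them by 5.94%. All 5 genes were among the former, with ranks by ratio of 3, 4, 13, 19 and 40 in the order given. Nothing is read from that count, since the genes were chosen for a Th17-like pattern in these cells.

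Thinned to equal depth, 4.62% of 260 *CCR6*-positive cells had an *IL23R* UMI and 0.166% of 7816 negative cells. *COL5A3* was found in 11.5% and 0.409%, *CALHM6* in 12.7% and 1.06%, *PERP* in 10.4% and 0.691% and *DAPK2* in 15.4% and 2.05%. The intervals of *COL5A3* (7.92 to 16.1%), *CALHM6* (8.90 to 17.4%), *PERP* (6.96 to 14.7%) and *DAPK2* (11.2 to 20.3%) in *CCR6*-positive cells lay above the 3.21% that the exact interval allows for 0 of 113 control cells. That of *IL23R* (2.41 to 7.92%) did not. Without thinning the shares in *CCR6*-positive cells, whose median was 4912 UMIs against 3116, were 12.2%, 24.3%, 27.8%, 21.3% and 25.9%. *CCR6*-positive cells also held 353 UMIs of 5 B cell markers (238 CPM, against 182 over all cells), 6 UMIs of 7 monocyte markers and 0 UMIs of 4 platelet markers. Without the cells with 2 or more UMIs of other lineages, the log2 ratios of the 5 genes were 2.86 to 4.37.

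The same held within the gates. In CD4hiCD8lo cells, where 77 cells had *CCR6*, the log2 ratios of *CCR6*-positive to *CCR6*-negative cells were 5.56 (4.57 to 6.56) for *COL5A3*, 4.15 (1.60 to 6.21) for *IL23R* and 4.02 (3.42 to 4.59) for *CALHM6*. *PERP* had 3.98 (2.85 to 4.998) and *DAPK2* 3.71 (2.99 to 4.37). In CD4hiCD8hi cells, where 177 cells had *CCR6*, they were 3.46 (2.98 to 3.94), 3.52 (2.70 to 4.35), 3.29 (2.89 to 3.70), 2.63 (2.15 to 3.09) and 2.12 (1.74 to 2.48) in the same order. The intervals of the gates did not overlap for *COL5A3* and *DAPK2*, which both had the larger ratio in CD4hiCD8lo cells, and they overlapped for the other 3.

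**Figure D3:**
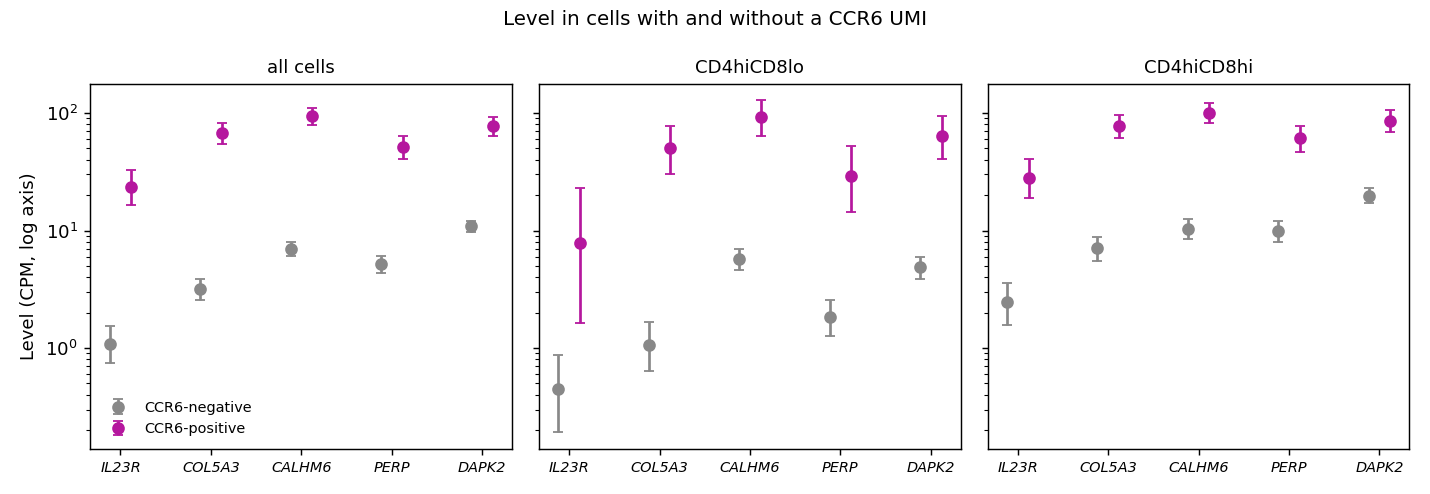
Level of each gene (CPM, log axis) in cells with (magenta) and without (grey) a *CCR6* UMI, over all cells and within CD4hiCD8lo and CD4hiCD8hi cells; bars are exact Poisson 95% intervals. In every panel the *CCR6*-positive point of each gene lies above the *CCR6*-negative one, and for *CALHM6* the positive points are alike in both gates (92.2 and 101 CPM).

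Read the other way, the gate mattered less among *CCR6*-positive cells. There the log2 ratio of CD4hiCD8hi to CD4hiCD8lo cells was 0.13 (-0.44 to 0.72) for *CALHM6*, 0.45 (-0.22 to 1.16) for *DAPK2* and 0.63 (-0.11 to 1.43) for *COL5A3*, all within counting error. *PERP* had 1.07 (0.14 to 2.15) and *IL23R* 1.83 (0.14 to 4.19), the latter on 3 UMIs in the CD4hiCD8lo cells. In *CCR6*-negative cells the same ratios were 0.85 (0.45 to 1.26), 2.03 (1.66 to 2.41), 2.73 (1.99 to 3.54), 2.43 (1.84 to 3.04) and 2.46 (1.26 to 3.81). Those of *COL5A3* and *DAPK2* lay above the interval in *CCR6*-positive cells and did not overlap it.

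The level of the 5 genes did not follow the number of *CCR6* UMIs in one way. From cells with 1 *CCR6* UMI (201 cells) over those with 2 (46 cells) to those with 3 or more (16 cells), *COL5A3* went from 54.5 (41.6 to 70.1) over 76.1 (46.5 to 118) to 171 CPM (104 to 264). *CALHM6* went from 85.3 (68.9 to 104) over 57.1 (31.9 to 94.1) to 256 CPM (173 to 366). *IL23R* stood at 22.7 (14.7 to 33.5) and 38.0 CPM (18.2 to 70.0) and had 0 UMIs in the last 16 cells, where the interval still reaches 31.5 CPM. Only 16 cells stand behind the last step. Seen from the genes, 50.8% of the cells with *IL23R* also had a *CCR6* UMI (95% interval 37.9 to 63.6%), as had 44.4% with *COL5A3*, 32.4% with *PERP*, 29.2% with *CALHM6* and 19.3% with *DAPK2*.

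The 5 genes met in the same cells more often than their margins give. For each pair, the number of cells with both was set beside the number that the cells with either gene give within 10 bins of depth, so that deep cells do not make pairs. All 10 pairs stood above 1, by counting intervals that exclude 1. With every cell thinned to 1 depth this no longer held for *IL23R* with *CALHM6* (2.79, 0.0705 to 15.5) and with *PERP* (7.98, 0.966 to 28.8). *IL23R* and *COL5A3* shared 24 cells where the margins give 3.41, a ratio of 7.03 (4.51 to 10.5). *IL23R* and *PERP* shared 20 cells (ratio 6.16, 3.76 to 9.51) and *COL5A3* and *CALHM6* 50 cells (4.43, 3.29 to 5.84). The lowest ratio was that of *CALHM6* and *DAPK2*, with 53 cells and 2.62 (1.96 to 3.42). The choice of the genes for one cell type favours such pairs.

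With *GATA3*, the regulator of Th2 cells, the ratios of observed to given cells were 1.16 (*PERP*, 0.910 to 1.45) to 1.30 (*COL5A3*, 1.03 to 1.62). With *CCR4*, a chemokine receptor of Th2 cells, *CALHM6* shared 21 cells (1.997, 1.24 to 3.05), and only its interval excludes 1. *IL23R* shared 1 cell with *CCR4* where the margins give 3.20 (0.313, 0.00792 to 1.74), an interval that overlaps that of *CALHM6*. *FOXP3*, the regulator of Treg cells, was rarely found with *CALHM6* and *DAPK2*. It shared 1 cell with *CALHM6* where the margins give 14.3 and 2 cells with *DAPK2* where they give 19.7, ratios of 0.070 (0.00177 to 0.390) and 0.101 (0.0123 to 0.366). *COL5A3* and *PERP* shared 8 and 7 cells with *FOXP3*, close to the 9.23 and 10.1 of the margins.

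**Figure D4:**
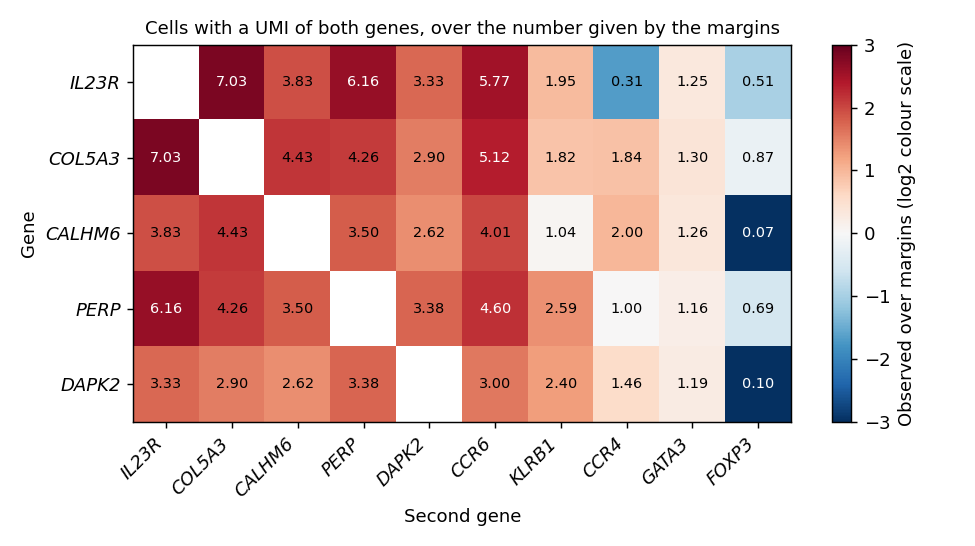
Cells with a UMI of both genes over the number given by the margins within depth bins; rows are the 5 genes, columns the second gene, numbers are the ratio and colour its log2. Pairs among the 5 genes and with *CCR6* lie above 1 (2.62 to 7.03), and *CALHM6* and *DAPK2* with *FOXP3* lie at 0.07 and 0.10.

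Among *CCR6*-positive cells alone the pairs came close to the margins, with ratios of 0.954 (*IL23R* and *CALHM6*, 0.457 to 1.75) to 1.80 (*IL23R* and *COL5A3*, 1.03 to 2.93), and of the 10 intervals only that of the latter pair and that of *COL5A3* and *CALHM6* (1.48, 1.01 to 2.10) exclude 1. Among *CCR6*-negative cells, they stood at 2.27 (*CALHM6* and *DAPK2*) to 11.5 (*IL23R* and *PERP*, 11 cells where the margins give 0.953). Cells without a *CCR6* UMI, in which *CCR6* can go unseen, thus also held several of the genes.

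By number of genes found, 8097 cells had none of the 5, 552 had 1, 131 had 2, 33 had 3, 15 had 4 and 2 had all 5. The margins give 7936, 811, 78.1, 5.07, 0.170 and 0.00219. The 181 cells with 2 or more were 76.8% CD4hiCD8hi, against 26.0% of the cells with none. A *CCR6* UMI was found in 49.2% of them (41.7 to 56.7%), in 12.7% of the cells with 1 of the genes and in 1.28% of those with none. Median depth rose as well, from 3083 UMIs in cells with none to 5346 in cells with 2 or more. Platelet markers had 0 UMIs and monocyte markers 5 UMIs in those 181 cells. B cell markers stood at 67.7 CPM against 182 over all cells.

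To see where the genes lay without their own help, cells were clustered with the 5 genes left out, which gave 17 clusters. Clusters and levels come from the same cells, so the following is a description. The cluster with most *CCR6* UMIs, cluster 4 of 822 cells, was led by *CCR6*, *EGLN3*, *CR2*, *CR1*, *CTSL* and *CCR9* and carried 4 of 5 Th17 markers. It held 80.9% of the *IL23R* UMIs, 77.04% of those of *COL5A3*, 68.8% of *CALHM6*, 55.6% of *PERP* and 39.7% of *DAPK2*, in 9.31% of the cells. Its cells were deep, with a median of 4744.5 UMIs against 3145 over all cells. Its share of all gene UMIs was therefore larger than its share of cells.

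Cluster 4 was mixed. Divided once more, a step added after the clusters had been seen, it gave 2 Th17-like subclusters, with *CCR6* and *CCR9* among their leading genes, and 3 others. Subclusters 2 (294 cells) and 3 (137 cells) were Tfh-like with *CXCR5*, the receptor that leads T cells to follicles, among their leading genes. *CCR9* was among the leading genes of subcluster 2 too. Subcluster 5 (30 cells) was led by *ZBTB16*, which encodes PLZF, had *CCR4* among its leading genes and is given by its number. The 2 Th17-like subclusters, 361 cells or 4.09% of all, held 75% of the *IL23R* UMIs (63.0 to 84.7%), 64.8% of *COL5A3*, 59.9% of *CALHM6*, 52.6% of *PERP* and 34.3% of *DAPK2*. These cells were deep as well, so they too held a larger share of all gene UMIs than of cells.

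Both Th17-like subclusters had the 5 genes, but not to the same degree. Subcluster 1 (307 cells, median 4883 UMIs) stood at 25.4 CPM of *IL23R* (18.1 to 34.8), 56.1 of *COL5A3* (44.9 to 69.3), 92.6 of *CALHM6* (78.0 to 109), 53.5 of *PERP* (42.5 to 66.4) and 46.3 of *DAPK2* (36.2 to 58.4). Subcluster 4 (54 cells, median 6828 UMIs) stood at 30.4 (15.7 to 53.1), 104 (74.6 to 141), 170 (132 to 216), 101 (72.5 to 138) and 205 (163 to 255) in the same order. It held 25 of the 30 *IL17A* UMIs, in 9 of its cells, and 77.8% of its cells had *CCR6* against 31.3% in subcluster 1. *DAPK2* set them apart most, with a log2 ratio of 2.15 (1.67 to 2.63). *COL5A3*, *CALHM6* and *PERP* had 0.89 (0.32 to 1.44), 0.88 (0.43 to 1.30) and 0.92 (0.34 to 1.49), and *IL23R* 0.26 (-0.81 to 1.22).

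Thinned to equal depth, 44.4% of the cells of subcluster 4 and 10.6% of those of subcluster 1 had a *DAPK2* UMI. Without the cells that had an *IL17A* UMI, the log2 ratio of *DAPK2* between the subclusters was 2.197 (1.70 to 2.70). *IL17A* was sparse and can go unseen in the cells kept, so its part in the difference was not tested. Of the 11 cells with an *IL17A* UMI, 10 had at least 1 of the 5 genes, 5 each with *COL5A3* and *DAPK2*, 4 with *CALHM6* and 3 each with *IL23R* and *PERP*. Of these 11 cells, 10 were CD4hiCD8hi and 9 had *CCR6*.

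The remaining subclusters stood lower than the Th17-like ones. *CALHM6* stood at 18.7 CPM (12.2 to 27.3) in subcluster 2. *PERP* had 0 UMIs in subclusters 3 and 5 and 5.02 CPM (2.02 to 10.4) in subcluster 2. *COL5A3* stood at 8.61 (4.45 to 15.04), 16.2 (8.35 to 28.2) and 0 UMIs in subclusters 2, 3 and 5. *CALHM6* had 3 UMIs, all in 1 cell, in subcluster 3. Subcluster 5, with *ZBTB16* at 338 CPM, had 1 *IL23R*, 2 *CALHM6* and no *COL5A3*, *PERP* or *DAPK2* UMIs in 30 cells, where a limit of 3 cells allows 10% of cells per gene at 0.

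Within the 2 Th17-like subclusters, 255 cells were CD4hiCD8hi and 101 CD4hiCD8lo, and the gate differences shrank. The log2 ratio of CD4hiCD8hi to CD4hiCD8lo cells was -0.27 (-0.71 to 0.18) for *CALHM6*, 0.31 (-0.69 to 1.42) for *IL23R*, 0.51 (-0.13 to 1.204) for *COL5A3* and 0.56 (-0.04 to 1.19) for *DAPK2*, all within counting error. *PERP* kept a difference, at 73.2 CPM (59.7 to 88.7) against 38.6 (23.3 to 60.3), a log2 ratio of 0.92 (0.21 to 1.71). *CCR6*-positive cells of these subclusters (138 cells) exceeded the 223 *CCR6*-negative ones by 1.38 (0.83 to 1.95) for *COL5A3*, 1.19 (0.70 to 1.69) for *DAPK2* and 0.93 (0.52 to 1.35) for *CALHM6*. *PERP* had 0.56 (0.02 to 1.09) and *IL23R* 0.58 (-0.26 to 1.44). Both subclusters are pooled here, and *CCR6*-positive cells were 77.8% of subcluster 4 and 31.3% of subcluster 1. The difference between the subclusters, with *DAPK2* at 205 and 46.3 CPM, thus enters these ratios and was not separated from them.

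Outside cluster 4, *IL23R* had 13 UMIs in all. Of these, 11 were in CD4hiCD8hi cells (1.27 CPM, 0.636 to 2.28) and 0 in the 5429 CD4hiCD8lo cells, at least 7.13-fold higher when a floor of 3 UMIs is set for the group at 0. *COL5A3* stood at 4.05 CPM (2.82 to 5.63) against 0.238 (0.0649 to 0.609) there, a log2 ratio of 4.09 (2.61 to 6.04). *CALHM6* was alike in both, at 4.75 CPM (3.41 to 6.44) and 3.87 (2.99 to 4.93).

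*CCR6*-positive cells of different clusters held the genes at different levels. The Th2-like cluster (208 cells) carried all 4 Th2 markers and held 64 *CCR6*-positive cells, whose *CCR6* level of 276 CPM (218 to 344) was like the 242 CPM (211 to 275) of the 158 *CCR6*-positive cells of cluster 4. Those 64 cells had 0 *COL5A3*, 1 *IL23R*, 2 *CALHM6* and 3 *PERP* UMIs, against 93, 28, 130 and 67 in the 158 cells. *COL5A3* was thus at least 9.45-fold higher in the latter (floor of 3 UMIs over the group), and *CALHM6* higher by a log2 ratio of 4.31 (2.43 to 7.37). *DAPK2* differed least, at 38.4 CPM (19.2 to 68.7) against 106 (86.6 to 130). Since *COL5A3*, *CALHM6* and *PERP* were picked for a difference from Th2-like cells, that difference is what the choice used.

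**Figure D5:**
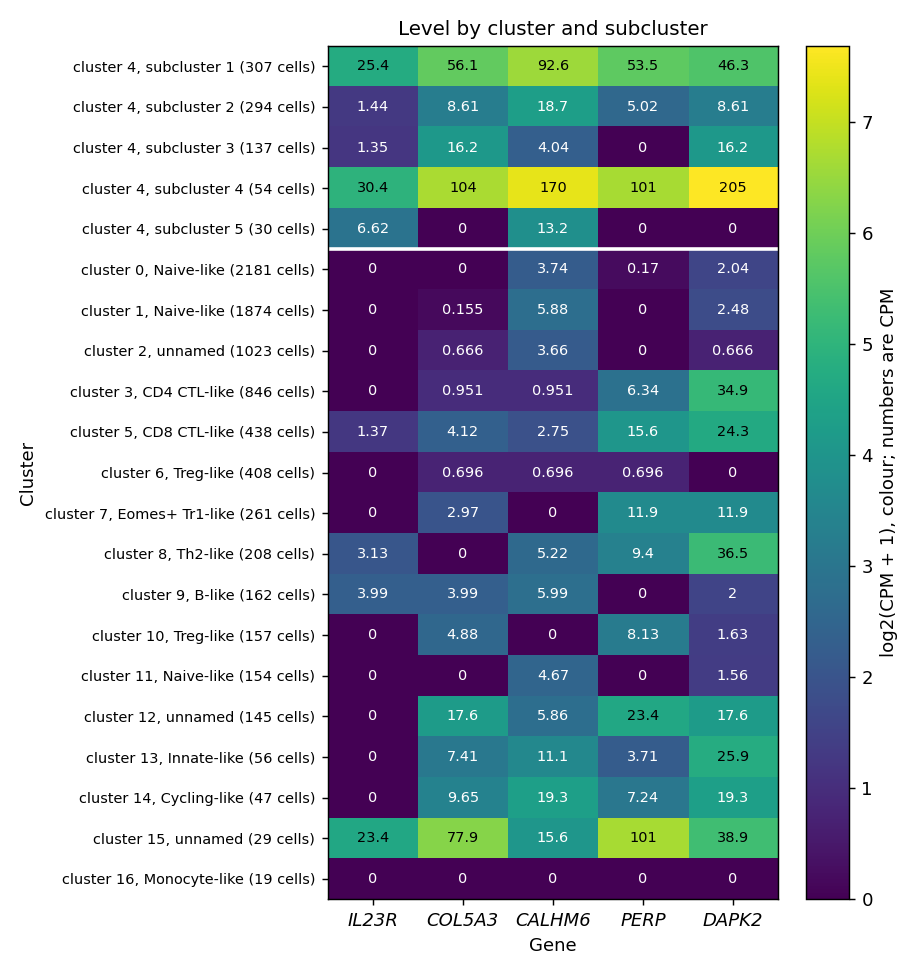
Level of each gene by cluster, with cluster 4 shown as its 5 subclusters above the white line; numbers are CPM and colour is log2(CPM + 1). Subclusters 1 and 4 are high for all 5 genes, and *DAPK2* is also at 24.3 to 36.5 CPM in the Th2-like cluster and both CTL-like clusters.

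Away from the Th17-like cells the 5 genes went different ways. *DAPK2* was common in cytotoxic cells: the CD4 CTL-like cluster (846 cells, with *CX3CR1* and *GZMB* leading) stood at 34.9 CPM with 24.8% of all *DAPK2* UMIs, and the CD8 CTL-like cluster (438 cells) at 24.3 CPM. Over the CD4 CTL-like, CD8 CTL-like and innate-like clusters, 1340 cells held 170 *DAPK2* UMIs (30.3 CPM, 25.9 to 35.2) and 55 *PERP* UMIs (9.81 CPM, 7.39 to 12.8). The same cells held 3 *IL23R*, 14 *COL5A3* and 12 *CALHM6* UMIs. *DAPK2* was found with *CX3CR1*, a receptor of cytotoxic cells, in 105 cells where the margins give 44.3 (ratio 2.37, 1.94 to 2.87), while *COL5A3* (0.230, 0.0747 to 0.537) and *CALHM6* (0.180, 0.0660 to 0.392) met it less often than the margins give. *PERP* stood at 1.36 (0.931 to 1.92), and with granzyme B RNA, *GZMB*, at 1.54 (1.197 to 1.95).

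Of the 5 genes, *CALHM6* and *DAPK2* had more than 1 UMI in naïve-like cells, at levels under the 5.30 CPM that 3 UMIs would give in the control cells. The 4209 naïve-like cells held 63 *CALHM6* UMIs in 61 cells (4.85 CPM, 3.73 to 6.21) and 29 *DAPK2* UMIs (2.23 CPM, 1.496 to 3.21), but 0 *IL23R*, 1 *COL5A3* and 1 *PERP* UMI. In 565 Treg-like cells, *CALHM6* and *DAPK2* had 1 UMI each and *IL23R* none. Eomes+ Tr1-like cells (261 cells) had 12 UMIs each of *PERP* and *DAPK2* (11.9 CPM), 3 of *COL5A3* and none of *CALHM6*.

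A small cluster of 29 cells, left unnamed and with *TRAV10*, *TRBV5-4*, *ZBTB16*, *KLRB1* and *TRBV25-1* among its 10 leading genes, stood high for part of the genes. Its best marker list was that of Th17 cells, with 4 of 5 markers carried and a mean log2 ratio over the median cluster of 3.51. However, its 10 leading genes held more markers of the innate-like list than of the Th17 list, so it was given no name. It had *PERP* at 101 CPM (13 UMIs in 10 cells) and *COL5A3* at 77.9 CPM (10 UMIs in 9 cells), *IL23R* 3 UMIs, *CALHM6* 2 UMIs and *DAPK2* 5 UMIs. Of its cells 27.6% had *CCR6*, and its median CD8 tag of 2069 UMIs was the highest of all clusters. In the 11 cells of the whole sample with both *TRAV10* and *TRBV25-1*, *PERP* had 7 UMIs in 5 cells, *COL5A3* 4 UMIs in 4 cells and *DAPK2* none, which at 11 cells allows up to 27.3% of cells. These receptor segments were singled out after their values were seen.

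Over the 17 clusters, which share one library, *COL5A3* and *PERP* had the most similar levels of the pairs among the 5 (Pearson's r of log2(CPM + 5) = 0.87), and *CALHM6* and *PERP* the least (0.46). By the same measure, the genes most like *IL23R* were *PLXNA3* (0.90), *PTPN13* (0.88), *NEDD4L* (0.87) and *IL17RE* (0.84), the last an IL-17 receptor subunit. The gene most like *COL5A3* after *PERP* was *ZBTB16* (0.86). *ADAM23* (0.91) led for *PERP* and, among genes with a symbol, *PARP8* (0.89) and *ATP2B4* (0.89) for *DAPK2*. *CALHM6* had no gene above its 0.69 with *COL5A3*.

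Genes were also ranked by their level in the cells that held each of the 5. *CCR6* was among the 5 genes with the largest ratio between cells with and without each of the 5, for all but *IL23R*, from 6.71-fold with *DAPK2* to 14.4-fold with *COL5A3*. *NEDD4L*, a ubiquitin ligase, was first for *IL23R*, at 29.1 CPM in cells with *IL23R* and 1.44 in the others, followed among genes outside the 5 by *SMOX* and *PTPN13*. *CCR9*, the receptor for homing to the gut, was 9.74-fold higher in cells with *CALHM6* and 12.7-fold higher in cells with *PERP*. *CEBPD*, a transcription factor, was 9.43-fold higher in cells with *PERP*, and *CHN1* 13.4-fold higher in cells with *COL5A3*.

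The other genes of the pathway moved in part with the 5. Of a list of 20 Th17 genes, 9 had at least 50 UMIs apart from *CCR6*, and 6 were at least 2 times higher in *CCR6*-positive cells (among them *RORA*, *KLRB1*, *IL1R1*, *ZBTB16* and *CCR2*), with none lower (median log2 ratio 1.72, against 0.01 over all genes). Over all genes 5.11% were higher and 5.94% lower. *IL1R1*, the receptor for IL-1, was found at 18.2 against 0.828 CPM, on 27 and 25 UMIs. It passed the limit of 50 UMIs only through the *CCR6*-positive cells. The cytokines were too sparse for the list: *IL22* had 27 UMIs in 6 *CCR6*-positive and 3 in 3 *CCR6*-negative cells, and *IL26* 24 in 10 and 6 in 6. *IL17F* had 4 UMIs in all.

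Of 10 genes of IL-23 receptor signalling, 3 reached a fold of 2 in *CCR6*-positive cells (*IL12RB1*, *IL18R1* and *IL1R1*) and none fell by it. *IL1R1* was already counted in the Th17 list. *IL12RB1*, the partner of IL-23R in the receptor, stood at 33.1 against 10.9 CPM, a log2 ratio of 1.60. *JAK2* (28.4 and 25.7 CPM) and *STAT3* (81.0 and 77.4 CPM) differed by less than the counting error. *TYK2* (log2 ratio 0.57, 0.15 to 0.97) and *STAT4* (0.52, 0.19 to 0.83) were higher in *CCR6*-positive cells by less than a fold of 2. In CD4hiCD8hi over CD4hiCD8lo cells 3 of 10 reached it too, with *IL12RB2*, a subunit of the IL-12 receptor, in place of *IL12RB1* (log2 ratio 0.91). Over all genes 4.51% reached it there.

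Relatives of the other 4 genes reached that fold in part. Over all genes, 5.11% were higher and 5.94% lower in *CCR6*-positive cells. In CD4hiCD8hi over CD4hiCD8lo cells these shares were 4.51% and 1.19%. In lists this short, no gene or a single gene does not stand apart from these shares, and nothing is read from it. None of 9 measured DAPK kinase and autophagy genes reached a fold of 2 in either comparison (median log2 ratios 0.17 and 0.15). Of 7 genes of the PMP22 family, the cell cycle and cell death set beside *PERP*, *CDKN1A*, a cell cycle inhibitor, alone did in *CCR6*-positive cells (50.6 against 21.5 CPM). Of 6 CALHM family and interferon-inducible genes set beside *CALHM6*, *CALHM2* alone did (19.6 against 9.60 CPM). Of 4 measured collagen and matrix receptor genes, the integrin genes *ITGA1*, *ITGA2* and *ITGB1* were higher in *CCR6*-positive cells. *COL5A1*, the α1 chain of the same collagen, had 27 UMIs in all, too few for the count, and stood at 4.05 against 0.696 CPM (log2 ratio 2.54, 0.94 to 3.90). In the homing list of 10, *CCR9* (66.1 against 4.80 CPM) and *CCR10* were higher and 2 genes were lower, among them *CCR7*, which leads cells to lymph nodes. Of 8 genes of innate-like T cells, 4 were higher in *CCR6*-positive cells (*SLC4A10*, *CEBPD*, *ZBTB16* and *KLRB1*). *SLC4A10*, with 17 UMIs in *CCR6*-positive and 41 in *CCR6*-negative cells, passed the limit of 50 UMIs only through the former. *ZBTB16* and *KLRB1* were already counted in the Th17 list. Of 14 genes of other helper cells, 4 were higher (*CCR4*, *CXCR3*, *PDCD1* and *ICOS*).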

How the data were processed

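Per the labels and the study's methods, the authors mapped 5′ gene expression reads to Macaca_fascicularis_5.0 by means of Cell Ranger 3.1.0 (STAR 2.5.1b) and analysed cells in Seurat 3.1.3. The deposited values are unnormalized UMI counts of genes and antibody tags. Strand and multigene handling of the counts are not given in the sources used here. No coordinates or sequences are given, since no genome of that build was used.

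The members and lists were chosen with earlier results of these data known. Cells were clustered with Seurat 5.3.0 in R 4.3.3 on 2000 variable genes without the 5 genes (20 components, 20 neighbours, resolution 0.8, and 0.5 for the second division). A cluster took the name of the marker list with the largest mean log2 ratio over the median cluster. It had to hold at least 3 markers at 1.5 times that median or more, could not be very shallow, and its 10 leading genes could not hold more markers of another list. This naming rule was set after the clusters were seen. Scrublet (scanpy 1.11.5, expected rate 6%, threshold 0.675) called 0 cells and so had not worked. Alternatives therefore left out the 6% of cells with the highest score, or cells with RNA of other lineages.

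Genes named were the 5, *CCR6*, the list genes, and for each of the 5 the 5 genes with the largest ratio in cells with it (at least 50 UMIs, found in at least 10% of those cells) and the 5 most correlated over clusters. *CX3CR1*, *GZMB*, *TRAV10*, *TRBV25-1* and the leading genes of clusters were named after their values were seen. Intervals of ratios are exact binomial ones for how UMIs were split between both groups, and no ratio was given where a floor of 3 UMIs alone would turn its direction. With 1 preparation of 1 animal there is no test. Computations ran in Python 3.11.15 (scipy 1.17.1, numpy 2.4.6, scikit-learn 1.9.0) and were tested on simulated data. *AHR*, *MAF*, *PMAIP1*, *TRAV1-2*, *TRDC* and *TRGC1* were not analysed here. Some genes of the lists, clusters and partner rankings are not reported here, though they count in the totals.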

Additional observations from a re-analysis of the deposited data

Results flagged for a closer look

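*COL5A3* had 4 UMIs in 3 of the 123 barcodes outside the limits on genes and mitochondrial share (13.8 CPM, 3.76 to 35.4), above the 3 that a count of 0 allows, in barcodes used only where all deposited barcodes were taken as an alternative. The other 4 genes had 1 or 2 UMIs each there.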

How the results depend on the processing

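No paired analysis was possible because the study has 1 preparation of 1 animal, with no replicate. Of the log2 ratios of *CCR6*-positive to *CCR6*-negative cells, 34 of 40 values under alternatives moved by less than the counting interval. Thinning every cell to 1 depth gave 3.04 for *IL23R*. Within the Th17-like subclusters, a restriction added after seeing the data, the ratios were 0.58 for *IL23R*, 1.38 for *COL5A3*, 0.93 for *CALHM6*, 0.56 for *PERP* and 1.19 for *DAPK2*. Of the ratios of CD4hiCD8hi to CD4hiCD8lo cells, 45 of 55 moved by less than the interval. Within the same subclusters they were 0.31, 0.51, -0.27, 0.92 and 0.56 in the same gene order, so that of *CALHM6* turned its sign within counting error. Scaling tags to gene UMIs, also added after seeing the data, gave 1.47 for *COL5A3*, 0.20 for *CALHM6*, 2.02 for *PERP* and 1.15 for *DAPK2*, and thresholds 1.5 times higher gave 1.535 for *DAPK2*. The causes were not tested.

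Co-detection over the margins without depth bins was 23.4 for *IL23R* with *COL5A3*, 10.7 with *CALHM6*, 16.2 with *PERP* and 7.94 with *DAPK2*. It was 12.3 for *COL5A3* with *CALHM6*, 10.99 with *PERP* and 6.78 with *DAPK2*, 7.76 for *CALHM6* with *PERP* and 5.30 with *DAPK2*, and 6.65 for *PERP* with *DAPK2*. Thinned, also without bins, it was 31.3 for *IL23R* with *COL5A3* and 9.69 with *DAPK2*, 8.98 for *COL5A3* with *CALHM6*, 12.9 with *PERP* and 7.16 with *DAPK2*, 6.88 for *CALHM6* with *PERP* and 3.83 with *DAPK2*, and 7.98 for *PERP* with *DAPK2*. All of these lay above the values with bins. Thinned, *IL23R* with *CALHM6* was 2.79 (0.0705 to 15.5) and with *PERP* 7.98 (0.966 to 28.8), so their intervals included 1. These and the other values among 42 of 60 moved by less than their interval.

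The share of UMIs in the Th17-like cells was 66.8% for *COL5A3* and 34.99% for *DAPK2* with 10 components. At resolution 1.2 it was 64.8% for *COL5A3* and 54.7% for *CALHM6*, and with the 5 genes among those clustered 59.6% for *CALHM6*. At resolution 0.4 no cluster took the Th17-like name, so there is no value. With genes of at least 20 UMIs, 796 were at least 2 times higher in *CCR6*-positive cells, and 681 higher and 223 lower in CD4hiCD8hi cells. With at least 100 UMIs, 64 were lower there. Depth is a limit too, since 68 *IL23R* UMIs in 8830 cells leave wide intervals in small groups.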
